A study of Mus musculus with 8 samples.

Results

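Lhx9, Eya1, Tbx5, Tbx15, Pitx1, Meis1, Meis2 and Shox2 are regulators of limb and mesenchyme patterning outside the Hox clusters. These 8 genes, of 18193 named on the array, were chosen by their roles around Lhx9 and Eya1 with results of these arrays in view, and every probe set that the platform annotation gives to 1 of these symbols alone was taken. That gave 22 of the 34945 probe sets with 1 gene symbol. Which measured values the genes were selected on is not recorded. Because Lhx9 and Eya1 stood apart in the contrast of genotypes, the genotype differences of all 8 genes are given below as a description, with no p-value for any of them, and so are the differences of Lhx9 and Eya1 between the 2 sets of arrays. Hypoxia differences of all 8 genes, and set differences of the other 6 genes, were tested. Whether these values also guided the choice is not known. They also share 1 estimate of the spread with the genotype contrast, so their p-values may be too small.

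The samples were fibroblasts from mouse embryos at stage E14.5 of the strain C57BL6/J, either wild type (Hif-p4h-1+/+) or knockout (Hif-p4h-1-/-). Hif-p4h-1, encoded by Egln2, is an oxygen-dependent prolyl hydroxylase that acts on hypoxia-inducible factor (HIF), whose alpha subunits it marks for breakdown. Cells of both genotypes were held in normoxia or in hypoxia, which made 4 groups of 2 arrays, and 1 array of each group carries the mark of a second set. The sources used here do not give the oxygen level, the length of exposure, the part of Egln2 that was deleted or the number of embryos behind an array. Values are log2 expression after RMA, so a difference of 1 is a doubling on the linear scale, and values of different probe sets cannot be ranked against each other because their probes differ.

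In the limb bud and in other embryonic mesenchyme, transcription factors of the T-box, PITX, MEIS, SHOX and LIM homeobox families divide the tissue into positions before it differentiates. Tbx5 sets up the forelimb field and Pitx1 gives the hindlimb its identity. Meis1 and Meis2 mark the proximal limb and bind DNA with PBX partners and Hox proteins. Shox2 is needed for the proximal limb bones, and Tbx15 acts in the mesenchyme of the skeleton and dermis. Lhx9 is a LIM homeodomain factor of limb and gonad, and Eya1 is a phosphatase and transcriptional coactivator needed for ear, kidney and other organs. Fibroblasts keep much of the positional expression of the body region they came from.

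The promoter windows of Lhx9, Shox2 and Meis1, which had a called change in hypoxia (below) and an entry in the promoter table, are shown so that the sequence next to each gene can be read beside its values. Each line is the 250 bases before the gene start on the gene's own strand, 5′ to 3′, from RefSeq on GRCm38.p6. The windows lie on the minus strand at chr1:138842445-138842694 for Lhx9, chr3:66981772-66982021 for Shox2 and chr11:19018970-19019219 for Meis1, upstream of the annotated start of each gene. Capitals mark matches, on either strand, to the hypoxia response element core ACGTG, the MEIS core TGACAG or the homeodomain core TAATTA.
Lhx9: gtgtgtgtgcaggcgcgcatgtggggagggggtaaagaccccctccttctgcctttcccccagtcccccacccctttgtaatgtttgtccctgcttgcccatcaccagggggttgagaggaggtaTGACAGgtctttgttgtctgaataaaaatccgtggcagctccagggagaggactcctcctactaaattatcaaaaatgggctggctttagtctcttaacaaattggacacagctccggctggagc
Shox2: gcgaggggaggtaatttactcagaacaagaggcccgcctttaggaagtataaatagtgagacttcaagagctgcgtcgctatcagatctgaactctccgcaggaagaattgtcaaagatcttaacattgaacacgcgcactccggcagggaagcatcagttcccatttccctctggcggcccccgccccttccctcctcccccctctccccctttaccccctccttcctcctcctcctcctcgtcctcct
Meis1: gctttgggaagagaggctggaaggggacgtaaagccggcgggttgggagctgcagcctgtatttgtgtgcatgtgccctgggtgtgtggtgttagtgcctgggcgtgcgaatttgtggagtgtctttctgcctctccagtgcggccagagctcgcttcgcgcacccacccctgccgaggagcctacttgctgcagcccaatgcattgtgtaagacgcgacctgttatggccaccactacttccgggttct

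The Lhx9 window held 1 match, TGACAG starting 125 bases upstream of the gene start. The windows of Shox2, Meis1 and Meis2 held none of the 3 motifs as written above. GCGTG, the other form of the hypoxia response element core, was not searched for. No match shared bases with another. Among 32851 promoter windows of the same length, 16.6% held ACGTG, 15.9% held TGACAG and 4.84% held TAATTA. Sequences were found for 4 of the 8 genes, and those of Eya1, Tbx5, Tbx15 and Pitx1 are not shown.

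Of the 22 probe sets, 20 had a mean over the 8 arrays at or above the 25th percentile of all probe sets, a log2 value of 3.60, and entered the tests on 33787 probe sets. The other two were Lhx9 1441313_x_at, which read between 2.44 and 3.76, and Eya1 1443117_at, which read between 3.02 and 3.80. Every gene kept at least 1 probe set. The brightest probe set of each gene had a mean between the 56.5 percentile of probe sets (Tbx5 1425695_at) and the 86.4 percentile (Shox2 1438042_at), which describes the signal of those probes and does not rank the transcripts. By the manufacturer's naming, the endings _s_at and _x_at mark probe sets whose probes can match other transcripts, which applies to Tbx15 1422195_s_at, Meis2 1457632_s_at and 1447861_x_at, and Lhx9 1441313_x_at. Pitx1 1449488_at varied least over the 8 arrays, with an SD of 0.067, and Lhx9 1419324_at varied most, with an SD of 1.24.

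The first principal component of the 33787 probe sets past the filter, with 51.8% of the variance, separated the 2 sets of arrays. Wild-type arrays read 8.84 to 9.13 for Egln2, and the knockout arrays gave 8.0 and 8.34 in normoxia and 8.66 and 8.85 in hypoxia. Within each set and oxygen condition the knockout array was the lower, although the ranges overlap, and whether its probe set lies in the deleted part is not known. The fibroblast markers were present, with 12 of 12 above the filter and a median log2 level of 12.0. Markers of macrophages and leukocytes (12 of 12), cartilage (7 of 8), skeletal muscle (8 of 10) and heart muscle (5 of 7) also passed the filter, and their values are given beside the results they move with.

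**Figure D1:**
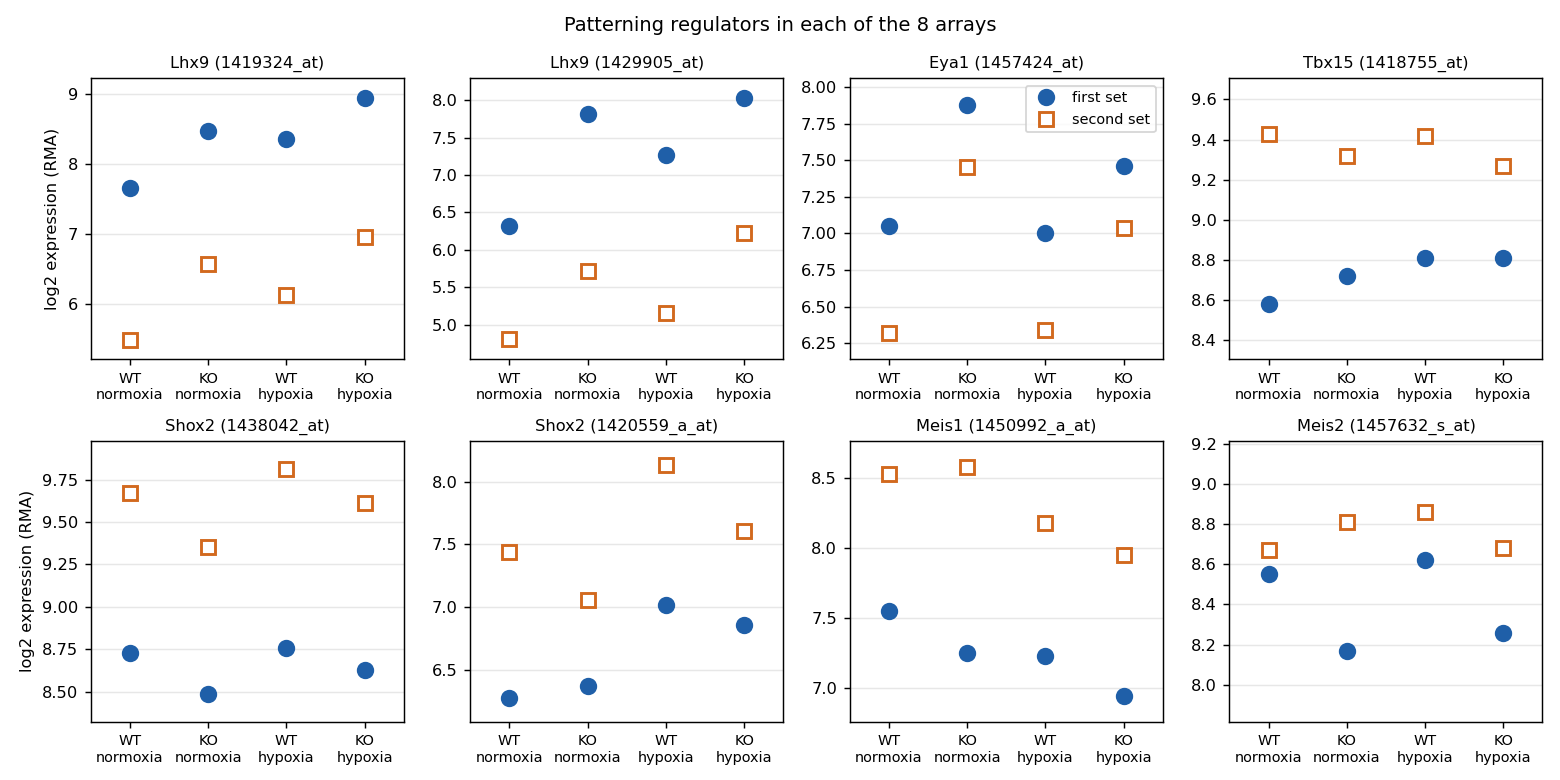
Log2 expression (vertical axis) of 8 probe sets of Lhx9, Eya1, Tbx15, Shox2, Meis1 and Meis2 in each array, with the 4 groups on the horizontal axis; filled circles are arrays of the first set and open squares arrays of the second. Lhx9 differs by -2.24 to -1.52 from the first to the second set on these 2 probe sets, Eya1 is higher in knockout in both sets, and Shox2, Tbx15, Meis1 and Meis2 lie higher in the second set.

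Lhx9 was higher in the knockout in every pair of arrays on the 3 probe sets that passed the filter. Probe set 1419324_at read 7.65 in wild type and 8.47 in knockout in normoxia, and 8.36 and 8.95 in hypoxia, in the first set. In the second set it read 5.48 and 6.56 in normoxia and 6.12 and 6.95 in hypoxia. Knockout and wild type did not overlap within either set, but they overlapped over all 8 arrays, because the second-set knockout arrays lay below the first-set wild-type arrays. Over both oxygen conditions the knockout minus wild type difference was 0.83 ± 0.088 (standard error of the fit, 4 arrays a genotype), a 1.78-fold higher level. The difference was 0.95 in normoxia and 0.71 in hypoxia, and 0.71 within the first set and 0.96 within the second.

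The second Lhx9 probe set, 1429905_at, gave the larger difference. In the first set it read 6.32 in wild type and 7.81 in knockout in normoxia, and 7.27 and 8.03 in hypoxia. In the second set the values were 4.8 and 5.71 in normoxia and 5.15 and 6.22 in hypoxia. Here too the genotypes did not overlap within a set, and the difference over both oxygen conditions was 1.06 ± 0.12, or 2.08-fold. Probe set 1431598_a_at had a smaller difference of 0.36 ± 0.11, with the knockout higher in 4 of 4 pairs, from 5.27 against 5.77 (first set, normoxia) to 4.88 against 5.29 (second set, hypoxia). The dim probe set 1441313_x_at was higher in knockout in 3 of 4 pairs.

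Eya1 was higher in the knockout on 1 of its 3 probe sets. Probe set 1457424_at read 7.05 in wild type and 7.88 in knockout in normoxia, and 7.0 and 7.46 in hypoxia, in the first set. In the second set it read 6.32 and 7.45 in normoxia and 6.34 and 7.04 in hypoxia. All 4 pairs had the knockout higher, and the genotypes did not overlap within a set. The difference over both oxygen conditions was 0.78 ± 0.092, a 1.72-fold higher level, with 0.98 in normoxia and 0.58 in hypoxia. The dimmer probe set 1421727_at read between 4.21 and 4.54 with a difference of 0.12 ± 0.10, and 1443117_at was higher in knockout in only 1 of 4 pairs, so the probe sets of Eya1 did not give the same result.

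**Figure D2:**
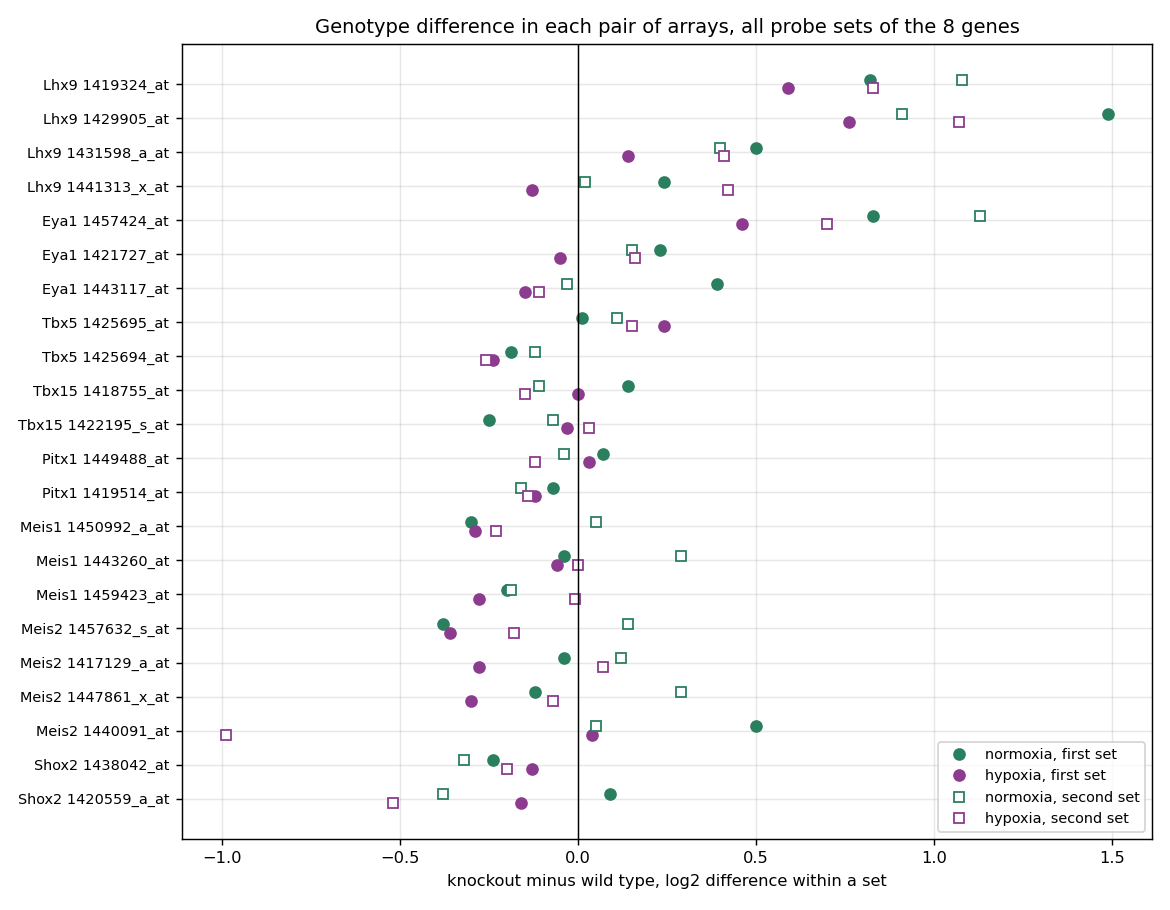
Knockout minus wild-type difference in log2 expression (horizontal axis) for all 22 probe sets of the 8 genes (vertical axis), 1 point for each pair of arrays of the same set and oxygen condition; filled points are the first set, open points the second, green normoxia and purple hypoxia. Lhx9 1419324_at and 1429905_at and Eya1 1457424_at have all 4 points between 0.46 and 1.49, and the points of the other 6 genes lie between -0.99 and 0.50 on both sides of 0.

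The other 6 genes had genotype differences between -0.24 and 0.13 over their 15 tested probe sets, with a median of -0.10 beside 0.00 over all probe sets. Shox2 1438042_at was lower in knockout in 4 of 4 pairs, with a difference of -0.22 ± 0.061. Its first-set values were 8.73 in wild type and 8.49 in knockout in normoxia and 8.76 and 8.63 in hypoxia. In the second set they were 9.67 and 9.35, and 9.81 and 9.61. The genotypes therefore did not overlap within a set, as for Lhx9, but in the other direction. The second Shox2 probe set, 1420559_a_at, had a difference of -0.24 ± 0.11 with the knockout lower in 3 of 4 pairs. Tbx5 1425695_at was higher in knockout in 4 of 4 pairs by 0.13 ± 0.098. The dim Tbx5 1425694_at was lower in 4 of 4 pairs, with -0.20 ± 0.11, so the Tbx5 probe sets went in opposite directions. The share of all probe sets with pairs of the same sign, or with ranges that do not overlap, is not given for any contrast. Such patterns, above and below, are therefore description only.

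The fit over all probe sets called 0.0444% of them for knockout against wild type over both oxygen conditions, and 1 of the 20 members, Lhx9 1419324_at, was among those. Since this contrast may have chosen the genes, nothing is read from that count. In the 8 fits without 1 array the Lhx9 difference lay between 0.77 and 0.89, and none of them held the call.

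The 12 fibroblast markers had a median knockout minus wild type difference of -0.23, with 1 called lower. Their median in each pair of arrays lay between -0.19 and -0.08. Markers of other cell types also differed between the genotypes. The summed linear level of the 12 macrophage and leukocyte markers was 3153 to 4473 in first-set wild-type arrays, 1203 to 1244 in first-set knockout arrays, 1257 to 1503 in second-set wild-type arrays and 688 to 759 in second-set knockout arrays. Their median difference was -1.31, and 2 of the 12 were called lower. The 8 cartilage markers summed to 506 to 707 in first-set wild-type arrays and 737 to 796 in first-set knockout arrays, and to 451 to 535 and 551 to 582 in the second set. Col2a1, the main collagen of cartilage, leads this sum and was the 1 cartilage marker called higher, while the median difference of the list was 0.10. Acan, another marker of the list, read 5.54 in wild type and 6.26 in knockout in first-set normoxia, and 6.20 and 6.54 in first-set hypoxia. Its second-set values were 6.20 and 6.31 in normoxia and 5.93 and 5.97 in hypoxia. Sox9 read lower in knockout in hypoxia, with 7.94 in wild type against 7.52 in the first set and 7.85 against 7.50 in the second. In normoxia Sox9 read 6.71 and 6.86 in the first set and 6.62 and 6.55 in the second. Matn1, a cartilage matrix protein, stayed below the filter with a mean of 2.66. The skeletal muscle markers summed to 1582 to 1689 in first-set wild-type arrays and 824 to 846 in first-set knockout arrays, and to 2201 to 3070 and 2436 to 3237 in the second set. Myog, a muscle differentiation factor, read 8.04 in wild type and 3.86 in knockout in first-set normoxia. In first-set hypoxia Myog read 7.96 and 4.20, and in the second set it lay between 3.48 and 4.33. The heart muscle markers summed to 684 to 823 in first-set wild-type arrays, 214 to 237 in first-set knockout arrays, and 243 to 367 and 300 to 337 in the second set. Both muscle sums therefore separated the genotypes in the first set, where wild type was the higher, and overlapped in the second. Their median differences over both sets were -0.31 for skeletal muscle and -0.25 for heart muscle. The part of these cells in the Lhx9 and Eya1 differences was not tested. In samples of many cells, fewer cells of a type and less RNA per cell cannot be told apart.

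In hypoxia, Lhx9, Shox2 and Pitx1 were higher and Meis1 was lower over both genotypes. Of the 20 probe sets, 7 were called, 5 higher and 2 lower, which is 4 of the 8 genes. Over all tested probe sets 22.6% were called, 10.7% higher and 11.9% lower. The median hypoxia minus normoxia difference was 0.11 for the 20 probe sets and 0.00 for all. A count of 7 of 20 is not far from this background, so the results below are given gene by gene. All 7 calls were lost in a fit with no term for the set, and 2 of them, Pitx1 1419514_at and Meis1 1443260_at, were kept with the set as a random block.

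All 3 tested Lhx9 probe sets rose in hypoxia. With the values given above, 1419324_at was higher in hypoxia by 0.71 and 0.64 in the wild-type pairs and by 0.48 and 0.39 in the knockout pairs. Over these 4 of 4 pairs the difference was 0.56 ± 0.088 or 1.47-fold (limma, adjusted p = 0.00439). The call held in all 8 fits that left out 1 array, with differences between 0.50 and 0.61. Probe sets 1429905_at (0.51 ± 0.12, adjusted p = 0.0227) and 1431598_a_at (0.45 ± 0.11, adjusted p = 0.0196) rose in 4 of 4 pairs as well. These 2 calls were kept in only 3 and 2 of the 8 fits without 1 array. Because of the gap between the sets, hypoxia and normoxia overlapped over the 8 arrays for all 3.

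Shox2 rose in hypoxia on 1 of its 2 probe sets. Probe set 1420559_a_at read 6.28 in normoxia and 7.02 in hypoxia in first-set wild type, and 6.37 and 6.86 in first-set knockout. The second set gave 7.44 and 8.13 for wild type and 7.06 and 7.61 for knockout. All 4 pairs were higher in hypoxia, by 0.62 ± 0.11 or 1.53-fold (adjusted p = 0.00638), and the call held without any 1 array (0.54 to 0.70). The brighter probe set 1438042_at was also higher in 4 of 4 pairs, but by 0.14 ± 0.061 and with an adjusted p of 0.141. The size of the Shox2 change thus differed between its probe sets.

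Pitx1 showed a split of the same kind. Probe set 1419514_at read 4.94 in normoxia and 5.38 in hypoxia in first-set wild type and 4.87 and 5.26 in first-set knockout. The second-set values were 5.37 and 5.72, and 5.21 and 5.58. It was higher in 4 of 4 pairs by 0.39 ± 0.098 (adjusted p = 0.0260), a call that was lost in all 8 fits without 1 array although the difference stayed between 0.36 and 0.41. Probe set 1449488_at differed by 0.09 ± 0.092 (adjusted p = 0.576).

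Meis1 fell in hypoxia on 2 of its 3 probe sets. Probe set 1450992_a_at read 7.55 in normoxia and 7.23 in hypoxia in first-set wild type, 7.25 and 6.94 in first-set knockout, 8.53 and 8.18 in second-set wild type and 8.58 and 7.95 in second-set knockout. All 4 pairs were lower in hypoxia and the mean fell by 0.40 (standard error 0.088, adjusted p = 0.0154), or 1.32-fold. That call was lost without the first-set wild-type normoxia array and without either second-set knockout array, with differences from -0.49 to -0.32. Probe set 1443260_at read 4.99, 4.95, 4.40 and 4.69 in normoxia and 4.02, 3.96, 4.27 and 4.27 in hypoxia, so that the oxygen conditions did not overlap. It fell by 0.63 (standard error 0.16, adjusted p = 0.0299), but the difference was -0.98 within the first set and -0.275 within the second. The call was lost when any 1 of the 4 first-set arrays was left out, with values between -0.80 and -0.46. The dim probe set 1459423_at differed by 0.01 ± 0.11.

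Meis2, the paralog of Meis1, had no called probe set for hypoxia. Its 3 bright probe sets differed by 0.06, 0.12 and 0.18, with standard errors of 0.093, 0.090 and 0.093. The dim 1440091_at read 4.01, 4.51, 3.52 and 3.57 in normoxia and 3.79, 3.83, 4.45 and 3.46 in hypoxia, and its standard error of 0.23 was the largest among the 20 probe sets. Tbx5 differed by 0.13 ± 0.098 and 0.06 ± 0.11. Tbx15 1418755_at differed by 0.07 ± 0.076 and 1422195_s_at by 0.38 ± 0.15 (adjusted p = 0.116), the latter with 0.70 within the first set and 0.05 within the second.

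Eya1 gave no hypoxia call on either tested probe set. On 1457424_at the hypoxia minus normoxia difference was -0.02 ± 0.13 in wild type (adjusted p = 0.964) and -0.42 ± 0.13 in knockout (adjusted p = 0.102). It lay between -0.42 and -0.41 in the 2 knockout pairs and between -0.05 and 0.02 in the 2 wild-type pairs. The difference between the 2 responses, the genotype by oxygen interaction, was -0.40 ± 0.18 with an adjusted p of 0.999. No member passed that interaction test, and neither did any of the 33787 probe sets (0%), of which limma gave 828 an unadjusted p under 0.05, none of them a member.

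Taken alone, wild-type cells gave 2 called probe sets among the 20, where 11.1% of all probe sets were called. These were Lhx9 1419324_at (0.68 ± 0.12, adjusted p = 0.0158) and Shox2 1420559_a_at (0.72 ± 0.15, adjusted p = 0.0259), and neither call was kept with a fit to the wild-type arrays alone. Leaving out either wild-type normoxia array or the first-set wild-type hypoxia array ended the Lhx9 call, and leaving out any 1 of the 4 wild-type arrays ended the Shox2 call. Knockout cells alone gave none, where 6.87% of all probe sets were called, with 7 of the 20 at an unadjusted p under 0.05 in limma, beside 23.4% of all 33787. In knockout the differences were 0.44 ± 0.12 for Lhx9 1419324_at (adjusted p = 0.0818) and 0.52 ± 0.15 for Shox2 1420559_a_at (adjusted p = 0.0863). The interaction of these probe sets was -0.24 ± 0.18 and -0.20 ± 0.22, each with an adjusted p of 0.999, so a difference of response between genotypes was not detected. Among epithelial markers, Krt19, a keratin, was higher in hypoxia, from 7.62 to 8.46 in normoxia to 9.66 to 10.04 in hypoxia. It leads the list's summed linear level of 636 to 718 in normoxia and 1220 to 1544 in hypoxia, while the list's median difference was 0.14, with 1 of 7 tested genes called higher and 1 lower. Its part in the hypoxia results was not tested.

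**Figure D3:**
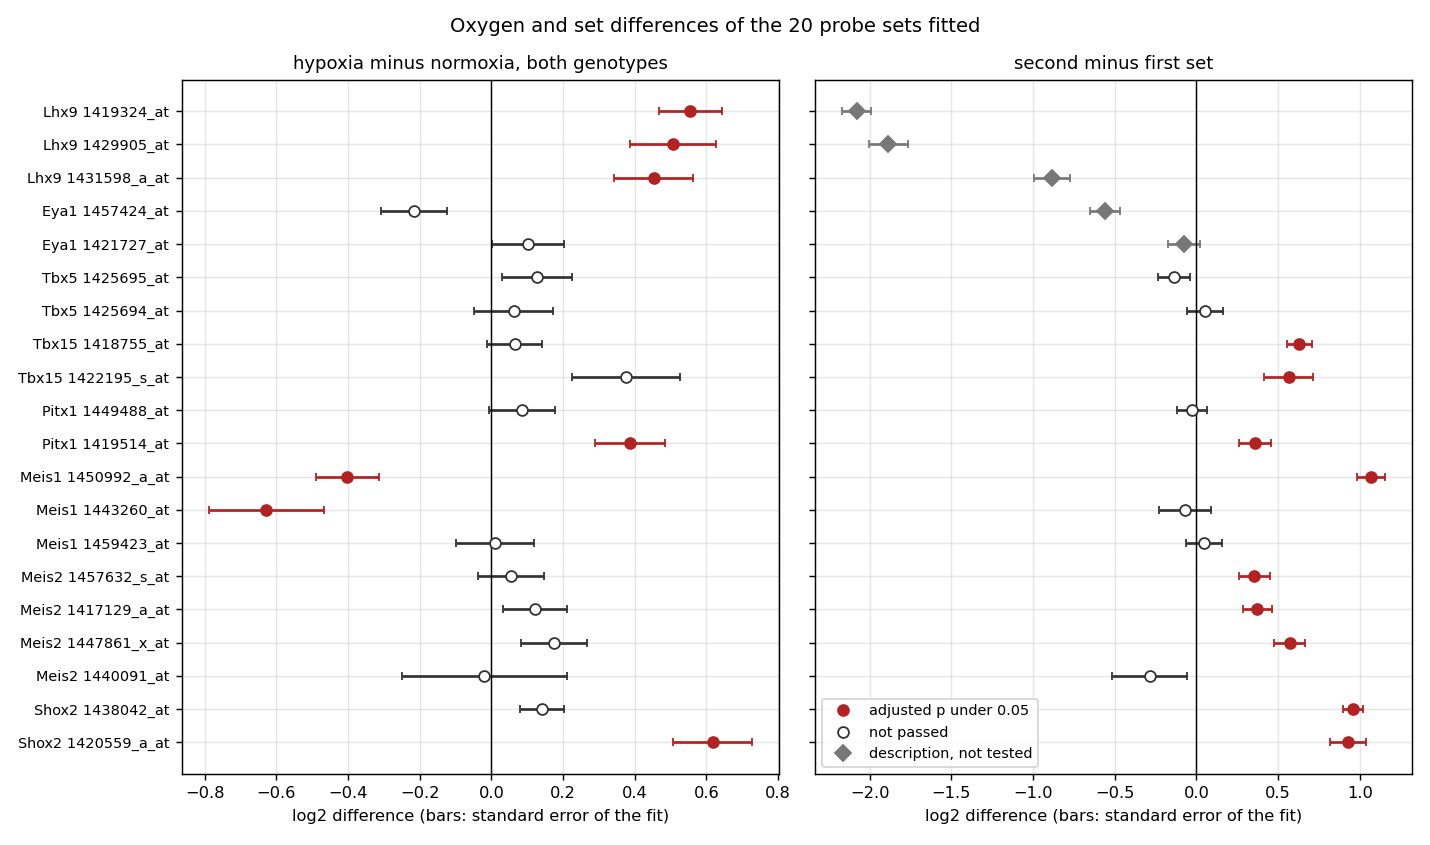
Log2 difference (horizontal axes) of the 20 tested probe sets (vertical axis) for hypoxia against normoxia over both genotypes (left) and for the second against the first set (right); bars are standard errors of the fit, red points passed an adjusted p of 0.05, open points did not, and grey diamonds are described without a test. On the left Lhx9, Shox2 1420559_a_at and Pitx1 1419514_at lie to the right and 2 Meis1 probe sets to the left; on the right the 9 red points of Tbx15, Pitx1, Meis1, Meis2 and Shox2 are all higher in the second set, and Lhx9 is lower.

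The second set held less Lhx9, less Eya1 on 1 of its probe sets, and more Shox2, Meis1, Tbx15 and Meis2 than the first. As a description, Lhx9 1419324_at differed by -2.24 to -1.91 over the 4 groups, and its mean fell by 2.08 (standard error 0.088), or 4.23-fold. Lhx9 1429905_at fell by 1.89 (standard error 0.12) and 1431598_a_at by 0.89 (standard error 0.11). For the first 2 of these probe sets every first-set array lay above every second-set array, from 7.65 to 8.95 against 5.48 to 6.95 on 1419324_at. Eya1 1457424_at was lower in the second set in all 4 groups, by 0.56 on average (standard error 0.092), with ranges that overlap. The dimmer Eya1 1421727_at differed by -0.08 ± 0.10.

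For the other 6 genes, 9 of 15 tested probe sets passed the test, all of them higher in the second set, in 5 of the 6 genes. Over all tested probe sets 36.7% were called, 18.3% higher and 18.4% lower, and the median difference of these 15 was 0.36 beside 0.01 over all. Whatever separated the sets therefore reached a large share of the array, and the labels do not say what it was. A set effect and an effect of different embryos, cultures or days cannot be told apart here.

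Shox2 was higher in the second set on both probe sets. Probe set 1438042_at read 8.49 to 8.76 in the 4 first-set arrays and 9.35 to 9.81 in the second, a difference of 0.96 ± 0.061 (adjusted p = 5.8e-05). On 1420559_a_at the ranges were 6.28 to 7.02 and 7.06 to 8.13, and the difference was 0.93 ± 0.11 (adjusted p = 5.2e-04). Neither pair of ranges overlapped, and both calls held without any 1 array. Shox2 in the second set thus stood 1.94-fold and 1.90-fold above the first, on the linear scale.

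Meis1 1450992_a_at was 2.10-fold higher in the second set, with 6.94 to 7.55 in the first set and 7.95 to 8.58 in the second (1.07 ± 0.088, adjusted p = 1.3e-04). The other Meis1 probe sets differed by -0.07 ± 0.16 and 0.05 ± 0.11 and were not called. Tbx15 was higher on both probe sets, by 0.63 ± 0.076 on 1418755_at (8.58 to 8.81 against 9.27 to 9.43, adjusted p = 6.0e-04) and by 0.57 ± 0.15 on 1422195_s_at (5.33 to 6.17 against 6.31 to 6.41, adjusted p = 0.0199). The second of these calls was lost without any 1 of the 4 normoxia arrays, with differences between 0.43 and 0.68.

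Meis2 was higher in the second set on its 3 bright probe sets. The dim Meis2 1440091_at went the other way and was not called, with -0.285 ± 0.23 (limma, adjusted p = 0.38). Its difference was -0.60 when either of the wild-type hypoxia arrays was left out. The difference was 0.57 ± 0.093 on 1447861_x_at (adjusted p = 0.00250), which held without any 1 array, and its ranges of 7.11 to 7.49 and 7.59 to 7.95 did not overlap. It was 0.37 ± 0.090 on 1417129_a_at (adjusted p = 0.0137) and 0.355 ± 0.093 on 1457632_s_at (adjusted p = 0.0193), and these calls were kept in 2 and 4 of the 8 fits without 1 array. Each loss of 1457632_s_at came with a knockout array left out. Pitx1 1419514_at was higher by 0.36 ± 0.098 (adjusted p = 0.0228), a call lost in all 8 fits without 1 array (0.33 to 0.37), and Pitx1 1449488_at differed by -0.03 ± 0.092. Tbx5 differed by -0.14 ± 0.098 (adjusted p = 0.320) and 0.05 ± 0.11 (adjusted p = 0.754) and was the only 1 of the 6 genes with no call.

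No change of the genotype difference between the sets was called for the 8 genes. The genotype contrast favours probe sets whose difference agrees between the sets. For Lhx9 and Eya1, which that contrast may have chosen, the values are therefore description, and nothing is read from the missing call. In a fit with a mean for each genotype in each set, none of the 20 probe sets was called, where 0.213% of all probe sets were, and 2 of the 20 had an unadjusted p under 0.05 in limma, beside 8.86% of all 33787. The change of the genotype difference from the first to the second set was 0.25 ± 0.15 for Lhx9 1419324_at and -0.14 ± 0.25 for 1429905_at. For Eya1 1457424_at it was 0.27 ± 0.16, and for Shox2 1420559_a_at it was -0.42 ± 0.16 (adjusted p = 0.514).

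Marker lists differed between the sets too. The macrophage and leukocyte markers had a median difference of -1.13, with 10 of 12 called lower in the second set, and the fibroblast markers one of 0.28, with 7 called higher and 2 lower. The nephron progenitor markers summed to 305 to 405 in the first set and 726 to 791 in the second, a gap led by Wnt4, a signal of the kidney and gonad (7.21 to 7.63 against 9.10 to 9.28), while the list's median difference was 0.07 with 1 of 5 called. The gonadal and coelomic markers summed to 369 to 389 and 562 to 756, with a median of 0.435 and 3 of 8 called higher. Of the 8 gonadal markers, Emx2, a factor of the urogenital ridge and limb, was higher in the second set (1.08 ± 0.078, adjusted p = 8.5e-05). Nr5a1, the defining gonadal factor, read 4.97 to 5.60 over all arrays. In wild type Upk3b read 4.02 to 4.09 in the first set and 6.33 to 6.36 in the second. Its knockout values were 4.69 to 4.91 and 5.23 to 5.67. Lrrn4 read 4.06 to 4.33 and 5.92 to 6.79 in wild type, and 4.43 to 4.98 and 4.68 to 5.24 in knockout. Msln read 4.24 to 4.41 and 5.27 to 5.47, and 4.61 to 4.62 and 4.35 to 4.77. Wt1, Gata4 and Amh read 4.76 to 5.76, 4.65 to 5.14 and 5.74 to 6.10 over all arrays. The part of these cells in the set differences was not tested.

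Related regulators were counted with 1 probe set for each gene, that of highest mean. In the same representation the 8 genes had 1 call higher and 1 lower for hypoxia. Between sets, 4 of the 6 genes other than Lhx9 and Eya1 were called, all of them higher. Over all 15278 genes tested in this way, 11.1% were called higher and 12.3% lower for hypoxia, with a median of 0.01. No gene of the 8 related lists was called for knockout against wild type over both oxygen conditions. Over all 33787 probe sets tested only 0.0444% were called in that contrast, so nothing is read from the absence of calls. For hypoxia, the mesenchyme factors of other families had 9 of 36 called higher and none lower, with a median of 0.18, led by Sox9 (1.02 ± 0.086, adjusted p = 4.6e-04), a factor of cartilage, and Nr2f2 (0.80 ± 0.074, adjusted p = 6.3e-04), an orphan nuclear receptor. Some other probe sets of both genes gave smaller values that were not called, 0.15 ± 0.14 for Sox9 1433889_at and 0.08 ± 0.10 for Nr2f2 1436475_at.

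Among families of the members, the TALE homeobox list had 3 of 14 higher and 1 lower in hypoxia. It holds IRX, TGIF and PKNOX genes as well as the PBX partners of MEIS. Irx1 had the smallest adjusted p of the list (0.60 ± 0.11, limma, adjusted p = 0.00758). Pbx3, a DNA-binding partner of MEIS proteins, rose by 0.26 ± 0.054 (adjusted p = 0.0121), while Meis1 itself fell. The LIM homeobox genes and cofactors related to Lhx9 had 3 of 11 higher and none lower, including Ldb1 (0.425 ± 0.099, adjusted p = 0.0195), the cofactor that binds LIM domains, and Lmo4 (0.63 ± 0.082, adjusted p = 0.00207). The other T-box genes (6) and the paired-type relatives of Pitx1 and Shox2 (10) had none called. The T-box count rests on the brightest probe sets, since Mga, a T-box factor not called on its brightest, was higher by 1.78 ± 0.25 on 1422646_at. The limb field factors had 2 of 21 higher and 1 lower, the limb bud signalling genes 6 of 36 higher and 4 lower with Grem1, a BMP antagonist, up by 0.675 ± 0.050 (adjusted p = 3.0e-04), and the Hox genes 6 of 30 higher and 1 lower.

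Between the sets, limb field factors moved in both directions, with 5 of 21 higher and 4 lower. Tbx4, the hindlimb T-box gene, was lower in the second set (-2.25 ± 0.11, adjusted p = 2.9e-05), in the direction of Lhx9, and on its other probe set 1426321_at the difference was -0.74 ± 0.13. The Hox genes had 17 of 30 higher and 1 lower, with a median of 0.39, and the lower gene was Hoxd13, a distal limb gene (-2.15 ± 0.13, adjusted p = 4.4e-05), whose other probe set 1422239_at gave -0.275 with an adjusted p of 0.0868. The TALE list had 6 of 14 higher and 1 lower (median 0.24), the LIM list 3 of 11 each way, the other T-box genes 2 of 6 higher and 1 lower, and the paired-type relatives 1 of 10 higher. Mesenchyme factors had 14 of 36 higher and 7 lower, and limb bud signalling genes 11 of 36 higher and 7 lower, where Bmp4, a signal of the limb bud edge, was lower (-1.61 ± 0.10, adjusted p = 5.7e-05). Over all 15278 genes in the same representation, 21.5% were called higher and 17.6% lower between the sets, with a median of 0.03.

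**Figure D4:**
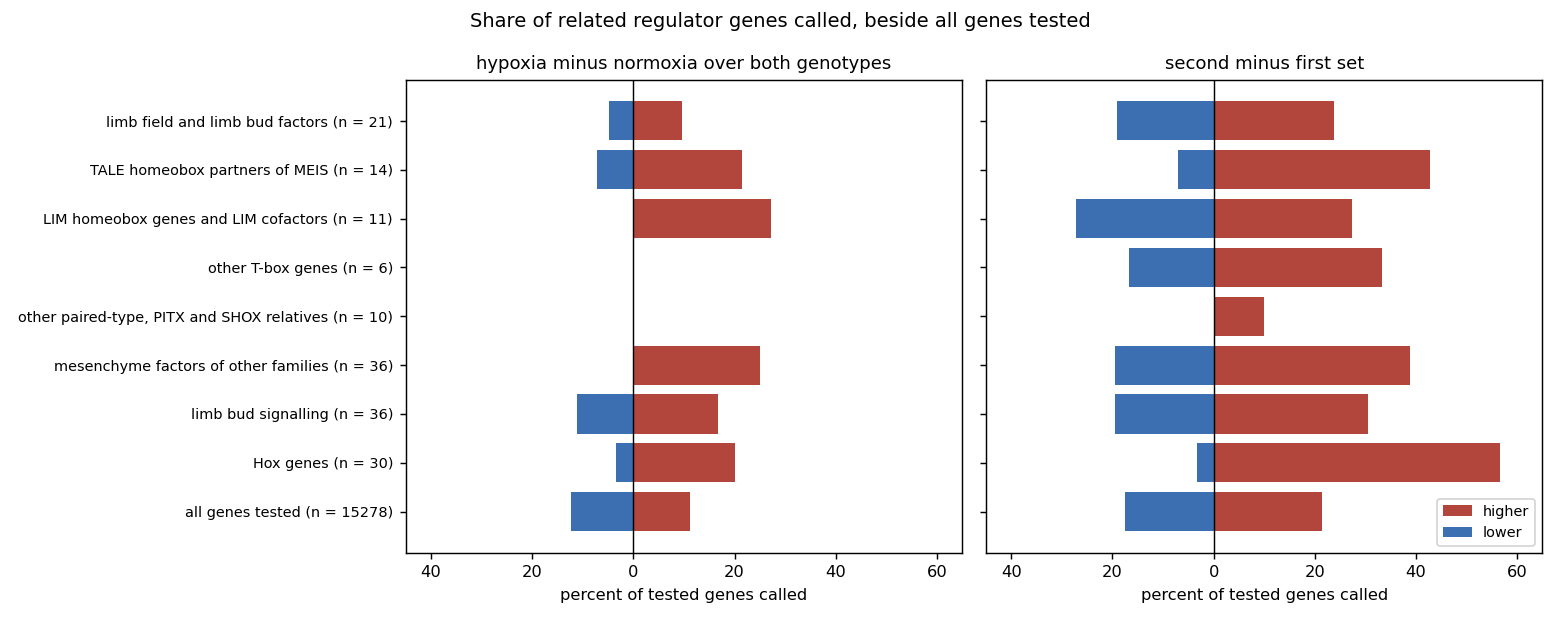
Percent of the tested genes in each of 8 lists of related regulators, and of all 15278 tested genes (bottom bars), called higher (red, to the right) or lower (blue, to the left) at an adjusted p of 0.05, for hypoxia against normoxia (left) and the second against the first set (right); n is the number tested. The Hox genes have the longest bar to the right between sets (17 of 30), and the mesenchyme factors have 9 of 36 genes higher and none lower in hypoxia. The list labelled TALE homeobox partners of MEIS also holds IRX, TGIF and PKNOX genes.

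The profiles most like each member's leading probe set were found by the root-mean-square difference of centred log2 values over the 8 arrays, among probe sets that vary at least as much. For Lhx9 1419324_at, 79 probe sets qualified, and the nearest were Aqp1, a water channel, at 0.27, and Ndnf, a secreted factor, at 0.30. Aqp1 read 8.28, 8.96, 9.27 and 9.69 in the first set (wild type and knockout in normoxia, then in hypoxia) and 6.11, 6.54, 6.93 and 7.33 in the second, so it shared the gap between sets, the higher knockout values and the rise in hypoxia. For Eya1 1457424_at, Col2a1 was the nearest of 2239 probe sets at 0.17. Its first-set values were 7.81, 8.68, 7.87 and 8.53 and its second-set values 7.17, 7.91, 7.01 and 7.71, higher in knockout in 4 of 4 pairs like Eya1.

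For the genes that differ mainly between sets, the nearest profiles lay closer. Aldh1l2, a mitochondrial folate enzyme, lay at 0.052 from Shox2 1438042_at among 2341 probe sets, and read 8.60 to 8.83 in the first set and 9.51 to 9.88 in the second. The nearest to Tbx15 1418755_at were Iah1 at 0.042 and Efnb2, an ephrin ligand, at 0.047, among 6492. Zdhhc14, a palmitoyltransferase, at 0.11 and Fyn, a kinase, at 0.11 were nearest to Meis1 1450992_a_at among 1458. The leading probe sets of Tbx5, Pitx1 and Meis2 varied so little that 11880 or more probe sets qualified, and their nearest profiles lay at 0.046 for Tbx5, 0.038 for Pitx1 and 0.070 for Meis2. These 8 arrays share their sets, so a small difference says that 2 profiles follow the same arrays.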

How the data were processed

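Gene expression was measured on 8 one-colour Affymetrix arrays from biotin-labelled cRNA made of 5 ug of total RNA, per the labels. The deposited table holds 1 log2 value per probe set and array, made with RMA per the submitters' processing notes, with no version given. RMA corrects background, equalises the distributions of the arrays and summarises probes, so a shift shared by all transcripts is not visible. Neither a genome build nor the set of arrays normalised together is given in the sources used here. Values ranged from 2.09 to 14.71 and array medians from 5.01 to 5.12. No further normalisation was applied.

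Gene names come from the platform annotation, with symbols updated through Entrez identifiers (34741 of 34945 found). In R 4.3.3 with limma 3.58.1, 1 model with 4 group means and the set as a term was fitted to all 8 arrays, with eBayes and a variance trend, over 33787 probe sets with a mean at or above the 25th percentile. It has 3 residual degrees of freedom, and the moderation added 4.78. A call is an adjusted p under 0.05 (Benjamini-Hochberg over the tested probe sets, two-sided). Errors are standard errors of this fit. Set by set, a second fit had a mean for each genotype and set.

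Arrays of 1 set deviate together. The correlation over probe sets of the set difference was 0.577 to 0.766 over 6 pairs of groups, and 0.750 between normoxia and hypoxia of wild type and 0.752 of knockout. The pairing comes from the sample titles. The labels do not say whether the arrays of a group stand for separate cultures or embryos, so the p-values rest on a spread between arrays that may be technical. The number of arrays limits the precision. No 2 arrays shared more than 2.63% of values.

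The members and the lists were chosen with earlier results of these data known. The text names all probe sets of the members, at most 3 called genes of a list with the smallest adjusted p, and the nearest profiles. A further list is not reported here. Alternatives covered the set term, the filter, 1 probe set per gene, the variance trend, centring, a second quantile normalisation and each array left out. Scripts were tested on simulated data.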

Additional observations from a re-analysis of the deposited data

How the results depend on the processing

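The number of member probe sets called was recomputed under each alternative, and no called member changed direction. Counts for genotype, and the probe sets of Lhx9 and Eya1 in the counts between sets, are description and not a test. Without the set as a replicate block, calls fell from 7 to 0 for hypoxia over both genotypes, from 2 to 0 for hypoxia in wild type and from 1 to 0 for genotype over both oxygen conditions. With the set as a random block the same counts were 2, 0 and 0, and the 2 were Pitx1 1419514_at and Meis1 1443260_at. With 1 probe set per gene they were 2, 1 and 2, with 1 for hypoxia in knockout and 6 between sets against 13. That fit tested fewer probe sets, so its counts, here and below, cannot be set against the others directly. A filter at the 50th percentile gave 4 for hypoxia in wild type, 1 in knockout and 3 for genotype, and no filter gave 2 for genotype. No variance trend gave 1 for hypoxia in wild type and 0 for genotype, a second quantile normalisation gave 4 for hypoxia in wild type, and the wild-type arrays alone gave 0. Leaving out 1 array gave 2 to 6 calls for hypoxia over both genotypes, 0 to 2 in wild type, 0 for genotype and 9 to 13 between sets. Over all probe sets, the calls for hypoxia over both genotypes were 7620, but 154 without the block, 4662 with the random block and 3922 of the probe sets taken 1 per gene. For hypoxia in wild type they were 3746, but 22, 1216 and 2237, with 1568 without the variance trend and 194 from the wild-type arrays alone. For hypoxia in knockout they were 2320, but 14, 409 and 1380, with 500 and 40. For genotype over both oxygen conditions they were 15, but 0, 0 and 35, with 3 without the trend. The cause of these differences was not tested beyond the fewer arrays or probe sets used. Background correction and probe summaries were not varied, since only summarised values were used.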
